A study of Mus musculus with 115 samples.

Results

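The comparison is between knockout ND6 hearts and wild type hearts that all received the Ant1 vector. Its members were chosen from the labels: 16 libraries of 3 hearts labelled C57BL/6JEiJ ANT1 -/- ND6 P25L, and 10 libraries of 3 hearts labelled C57BL/6JEiJ. These are 26 of the 112 bulk libraries and 6 of the 22 hearts of a series of 115 samples. The knockout ND6 mice lack Ant1, the protein encoded by Slc25a4, and their mitochondrial ND6 gene, a subunit of complex I, carries P25L. The mice of both groups had been injected at the pericardium with 2.5e11 vector genomes of AAV2/9Des-Gfp-mAnt1, an adeno-associated virus whose name carries Des, Gfp and mouse Ant1. A vector with Gfp alone served as the control vector in other groups, and an Ant1 knockout without the ND6 change was a further genotype. RNA of hearts was taken 1, 3, 6, 9 and 12 months after injection, but the labels tie no heart to a month, an age or a sex. The labels also do not state what the number in a title stands for. It was read as the heart, libraries with the same number were summed, and p-values then measure the spread between these sums, which may in part be technical.

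Ant1 is the adenine nucleotide translocator of heart and skeletal muscle, a carrier of the inner mitochondrial membrane that exports ATP made by oxidative phosphorylation in exchange for cytosolic ADP. ND6 is encoded by mitochondrial DNA and is part of complex I, through which electrons enter the respiratory chain. Neither function was measured here. Heart muscle under stress is known for the return of fetal genes and for the natriuretic peptides, whereas the secreted hormone Gdf15 is a known sign of mitochondrial stress.

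Expression was read by AmpliSeq, in which 1 short amplicon of each transcript is amplified and counted. The knockout ND6 hearts 37, 5 and 8 held 54779297, 27353645 and 26762439 counts, and the wild type hearts 80, 81 and 83 held 16827518, 30046014 and 25465735. Heart 37 was sequenced as 8 libraries and heart 80 as 2, and each of the other hearts as 4. Values below are CPM, the counts of a gene relative to the total of the heart, scaled by the trimmed mean of M-values. They stand in the order knockout ND6 hearts 37, 5, 8 and wild type hearts 80, 81, 83. A gene was called when its adjusted p in edgeR's quasi-likelihood test was below 0.05, and each difference is a log2 change of knockout ND6 against wild type with its standard error (SE). Cardiomyocyte markers dominated all 6 hearts, with summed levels of 85627 to 96300.3 CPM in knockout ND6 and 78764 to 85501 CPM in wild type.

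Slc25a4, the deleted gene and also the gene in the vector, was measured first as a check of the labels. It read 55.6, 66.7 and 0.732 CPM in the knockout ND6 hearts and 10209, 8968 and 10258 CPM in the wild type hearts. The groups did not overlap, and the difference was -7.90 (SE 0.81, adjusted p = 1.22e-06). Within the knockout ND6 group hearts 37 and 5 stood far above heart 8. All 4 libraries of heart 8 were low, between 0.565 and 0.954 CPM of the library's own total, and the 3 knockout ND6 hearts given the control vector lay in the same range at 0.219, 0.363 and 0.851 CPM. Knockout hearts given the Ant1 vector read 174 to 241 CPM. The heart labelled 8 therefore shows no Ant1 transcript above the control vector hearts, which goes against its vector label. The main counts, and those of the gene lists that moved most, are also given without it. In hearts 37 and 5 the level was 0.566% and 0.68% of the wild type mean. The value of heart 37 joins 2 levels, by the library's own total. Libraries 37a to 37d read 64 to 75.8 CPM, and 37e to 37h, from another table, read 24.6 to 46.1 CPM. Libraries of heart 5 read 63.6 to 70.5 CPM. Whether number 37 stands for 1 RNA sample was not tested. The count table does not separate transcripts of the vector from those of the chromosomal gene, so nothing can be said of vector RNA in the wild type hearts. In bulk RNA fewer cells that carry a transcript and less of it per cell cannot be told apart.

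Of 15403 genes tested, 3003 were called (19.5%), 1661 higher (10.8%) and 1342 lower (8.71%) in knockout ND6. Most changes were small: the median fold of the called genes was 1.46, with 259 genes at least 2-fold higher and 285 at least 2-fold lower. In 2844 of the called genes the 3 hearts of one group did not overlap with the 3 of the other, against 5246 of all tested genes (34.1%). Without heart 8, 2304 genes were called (15.0% of 15389 tested), of which 2183 were among the 3003. Without heart 37 it was 2533 genes (16.5%), and 2081 of these were shared. The count rests on 2 wild type hearts more than on any knockout ND6 heart, since it fell to 1973 without heart 80 and to 1878 without heart 83. With hearts 5 and 8 both left out, heart 37 alone against wild type gave 2414 genes (14.8%), in a fit that takes its spread from the other groups. No knockout ND6 heart shares a library table with these wild type hearts, and with the table as covariate 2196 genes were called, of which 1425 were among the 3003.

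Most of the widest falls lay on chromosome 8, which also holds Slc25a4 (GRCm38.p6, chr8:46207168-46211062). Calr, which encodes the calcium-binding chaperone calreticulin (chr8:84842088-84846931), read 3.35, 2.43 and 3.04 CPM in the knockout ND6 hearts against 508, 519 and 577 CPM in wild type. All 3 knockout ND6 hearts were at a like low level, and the difference was -7.49 (SE 0.20, adjusted p = 8.99e-17). Ubxn8, a membrane protein of the endoplasmic reticulum, had 6 counts over the knockout ND6 hearts and 855 over the wild type hearts, a ratio of 215 (exact 95% interval 98.6 to 585, counting error only). Pdgfrl had 4 against 540 counts (ratio 203, 79.4 to 746), and Ppp1r3b, which targets protein phosphatase 1 to glycogen, 7 against 428 (ratio 92, 44.7 to 229). Zswim4 fell by 5.50 and Il15, a cytokine of natural killer and memory T cells, fell by 2.81 on the log2 scale. From 30 to 95 Mb on chromosome 8, 112 of 369 tested genes were called (30.4%), against 80 of 408 on the rest of the chromosome (19.6%) and 2768 of 14340 on other chromosomes (19.3%). The limits of this stretch were set without a rule and enclose the wide falls given above, so its larger share is not separate support. Of the fitted falls beyond 16-fold, 9 lay in that stretch, with Slc25a4 among them, 1 on another chromosome (Asz1) and 1 in a gene without a position (LOC108167541). Control vector hearts show the same losses: Calr averaged 2.76 CPM in knockout ND6 and 516 CPM in wild type there. Knockout hearts without the ND6 change were as low in Calr, at 2.56 to 4.58 CPM with the Ant1 vector and 2.52 to 3.61 CPM with the control vector. Less transcript and a sequence difference under the amplicon cannot be told apart from these counts.

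Away from chromosome 8, among genes that averaged at least 5 CPM in a group, the widest rise was that of Sycp1, a protein of the synaptonemal complex of meiosis (chr3:102818499-102936100), with 17.7, 22.5 and 19.3 CPM against 0.0588, 0.159 and 0.115 CPM (7.32, SE 0.28, adjusted p = 1.14e-13). The lowest knockout ND6 heart was far above the highest wild type heart. Knockout hearts without the ND6 change were as high in Sycp1, at 15.5 to 22.4 CPM with the Ant1 vector and 15.9 to 18.3 CPM with the control vector. Tmem116 read 139, 143 and 133 CPM against 19.6, 18.9 and 18.2 CPM (2.88, SE 0.15). Arhgap9, a GTPase-activating protein, read 57.2, 112 and 97.7 CPM against 8.24, 10.5 and 8.99 CPM (3.25, SE 0.35), lowest in heart 37 but still apart from wild type. Nos1, the neuronal nitric oxide synthase that also works at the sarcoplasmic reticulum, read 10.6, 6.81 and 7.68 CPM against 1.71, 1.21 and 1.23 CPM (2.63, SE 0.32, adjusted p = 1.08e-05). Slc9a3 (2.49) and Grin2c (2.46) were called by like amounts. Among falls on other chromosomes, Cenpf, a centromere protein of dividing cells, read 2.51, 3.9 and 2.38 CPM against 28.3, 25.5 and 22 CPM (-3.12, SE 0.28). Egln3, a prolyl hydroxylase that marks hypoxia-inducible factor for degradation, read 13.7, 8.87 and 10.9 CPM against 71.3, 66.8 and 82.8 CPM (-2.71, SE 0.18, adjusted p = 1.36e-09). Genes named as the widest changes had to show no overlap between the groups, so their separation adds no support. Cenpf and Egln3 were called under every alternative tried. Tnnt3, a fast skeletal troponin, was called at 2.45, but its rise rests on heart 37, which read 18.5 CPM while hearts 5 and 8 read 1.91 and 2.01 CPM and wild type 0.884 to 1.68 CPM.

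**Figure D1:**
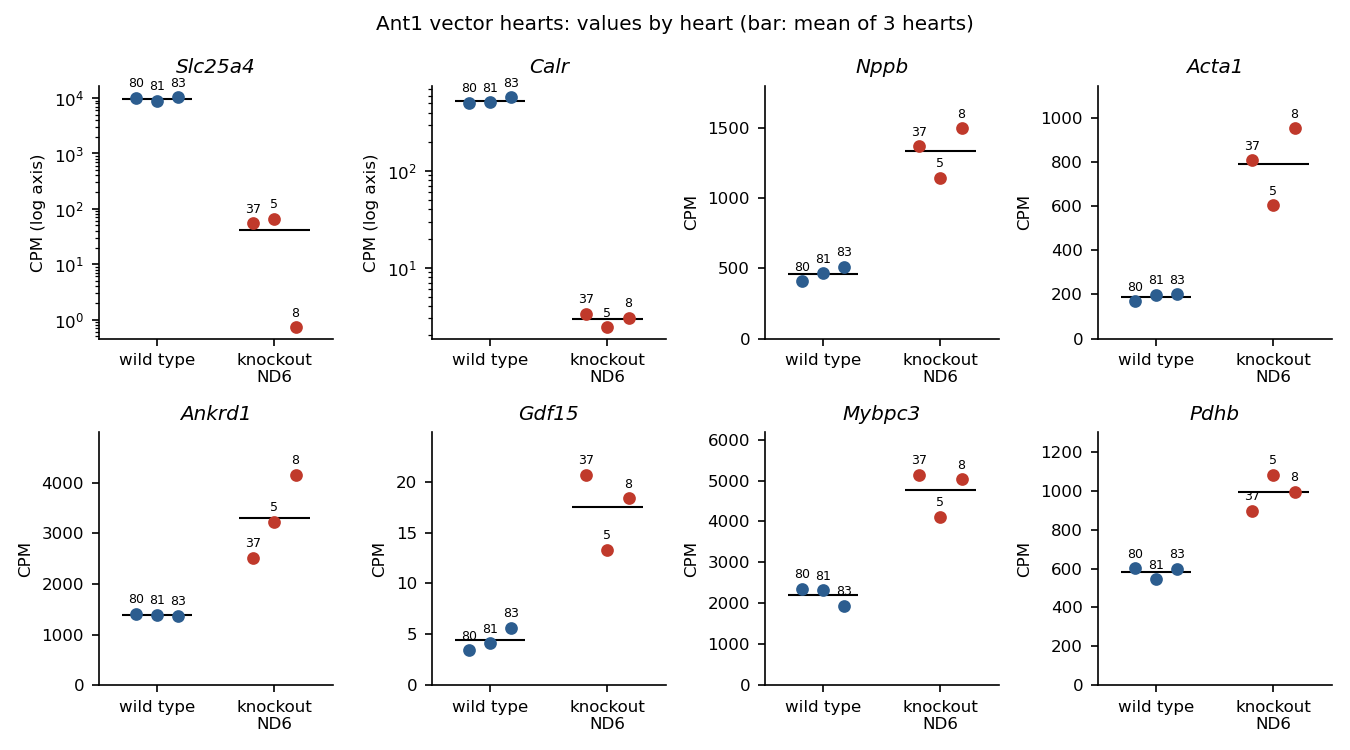
CPM of 8 genes in the 3 wild type (blue) and 3 knockout ND6 (red) hearts given the Ant1 vector, each point 1 heart with its number and each bar the mean of 3; the axes of Slc25a4 and Calr are logarithmic. Heart 8 stands alone at 0.732 CPM for Slc25a4, while in the other 7 genes the knockout ND6 hearts lie together and apart from wild type.

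Stress genes of heart muscle rose in part. Of 23 tested fetal and stress genes, 8 rose and 3 fell, with a median difference of 0.23 beside -0.002 over all genes. Acta1, the skeletal actin of the fetal heart, read 809, 605 and 954 CPM against 169.8, 199 and 201 CPM (2.06, SE 0.32, adjusted p = 0.000172). Nppb, the gene of B-type natriuretic peptide, read 1372, 1146 and 1501 CPM against 407, 466 and 512 CPM (1.54, SE 0.29, adjusted p = 0.001). Ankrd1, a stretch-responsive protein of the I-band, read 2518, 3236 and 4166 CPM against 1411, 1391 and 1372 CPM (1.25, SE 0.18, adjusted p = 8.42e-05). In each of these genes the lowest knockout ND6 heart lay above the highest wild type heart, and heart 8 was the highest of the 6. All were called under every alternative tried. Ankrd2, a relative of Ankrd1, rose by 1.18, Nmrk2, an NAD-making kinase of muscle, by 1.21, and Cryab, the small heat shock protein that guards desmin, by 0.56. Acta2 (0.62) and Postn (0.66), genes of smooth muscle and activated fibroblasts, were called but lost the call in 6 and 7 of the alternatives.

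Nppa, the gene of atrial natriuretic peptide, did not share in this. It read 2717, 1072 and 3841 CPM against 3368, 3729 and 3695 CPM (-0.50, SE 0.25, adjusted p = 0.181), with heart 5 the lowest and heart 8 the highest of all 6. Fhl2, a LIM protein that binds titin and restrains growth signals, fell, with 897, 935 and 876 CPM against 2157, 1660.0 and 1991 CPM (-1.10, SE 0.12, adjusted p = 3.47e-06). Fhl1 also fell (-0.87). Markers of atrial muscle moved beside Nppa: 5 of 12 fell and none rose, and their sum was 1519 to 5100.4 CPM in knockout ND6, lowest in heart 5, against 5467 to 6074 CPM in wild type. Among them Myl7, the atrial light chain, read 693, 154 and 513 CPM against 1075, 1202 and 1219 CPM (-1.36), and Sln, sarcolipin, read 209, 49.2 and 175 CPM against 359, 348 and 407 CPM (-1.36). Whether the amount of atrium in each piece of heart differed was not tested.

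Gdf15 read 20.7, 13.3 and 18.4 CPM in knockout ND6 against 3.41, 4.1 and 5.65 CPM in wild type (1.98, SE 0.50, adjusted p = 0.00882). The groups did not overlap, heart 37 was highest, and the largest adjusted p over the alternatives that tested it was 0.0415. Gdf15 lies in the stretch of chromosome 8 described above (chr8:70629393-70632470). Fgf21, the other hormone linked to mitochondrial disease, was too low to test, at or below 0.307 CPM in all 6 hearts. Of 13 tested secreted stress hormones only Gdf15 rose and only Mstn, the muscle growth inhibitor myostatin, fell (-1.35).

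The contractile apparatus changed at several of its most abundant transcripts. Of 32 tested sarcomere genes, 9 rose and 3 fell, with a median difference of 0.21. Mybpc3, cardiac myosin-binding protein C, read 5145, 4120.1 and 5037 CPM against 2354, 2325 and 1941 CPM (1.11, SE 0.15, adjusted p = 4.34e-05). Myh6, the adult alpha heavy chain of myosin, read 7295, 6822 and 7020.1 CPM against 4887, 4848 and 4533 CPM (0.57, SE 0.12, adjusted p = 0.00198). Both groups were tight in Myh6, and the genotypes were apart, but neither gene was called when the library table was a covariate (adjusted p = 0.0801 for Mybpc3 and 0.0737 for Myh6). Smyd2, a methyltransferase that stabilises titin, read 215, 207 and 209 CPM against 103, 114 and 108 CPM (0.96), Myh7b rose by 1.19 and the M-band gene Myom3 by 2.17 from below 0.5 CPM. Desmin (Des, 0.31), Mypn (0.45) and Actn2 (0.28) rose less. Tpm1 (-0.41) and Tnni3 (-0.25) fell together with Myl7. No amplicon for Myh7, the fetal beta heavy chain, was matched.

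Genes of calcium handling were divided, with 6 of 25 higher and 7 lower. Atp2a2, the calcium pump SERCA2 that refills the sarcoplasmic reticulum, read 11750.0, 10483 and 9938 CPM against 12941, 13238 and 13904 CPM (-0.32, SE 0.08, adjusted p = 0.00778). The release channel Ryr2 read 698, 466 and 525 CPM against 850.0, 921 and 756 CPM (-0.58, SE 0.15), the sodium-calcium exchanger Slc8a1 fell by 0.55 and the L-type channel Cacna1c by 0.33. These 4 genes set the calcium cycle of the beat, and in each the knockout ND6 hearts were all below wild type. Casq1, the skeletal calsequestrin, read 4.08, 1.66 and 1.61 CPM against 15.3, 11.8 and 11.8 CPM (-2.35, SE 0.31). S100a1, which helps SERCA2 and Ryr2, rose, with 879, 1156 and 1049 CPM against 696, 599 and 698 CPM (0.63, SE 0.11). Without heart 37, 1 gene of this list rose and 6 fell. Atp2a1, the fast skeletal pump, read 13.8 CPM in heart 37 and 2.11 to 3.11 CPM in the other 5 hearts.

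Among 28 tested ion channel genes, 4 rose and 6 fell. Scn4b, a beta subunit of the cardiac sodium channel, read 208, 242 and 216 CPM against 82, 119 and 85.1 CPM (1.22, SE 0.18, adjusted p = 8.81e-05). Kcnj2, the inward rectifier that holds the resting potential, fell, with 18.6, 26.2 and 26.2 CPM against 52.6, 55.2 and 36.8 CPM (-1.03, SE 0.20, adjusted p = 0.00113). The T-type calcium channel Cacna1g (-1.21) and the connexin Gjc1 (-0.61) also fell. In adrenergic, angiotensin and nitric oxide signalling 5 of 34 genes rose and 7 fell. Beside Nos1, Gnb3, a G-protein beta subunit, read 40.7, 70.4 and 58.2 CPM against 11.7, 10.1 and 12.8 CPM (2.29, SE 0.17, adjusted p = 1.31e-08). Of protein kinase A, the transcript of the regulatory subunit Prkar1a rose by 0.55 and that of the catalytic subunit Prkaca by 0.42. Corin, the protease that activates natriuretic peptides, fell by 0.59, the clearance receptor Npr3 by 0.64 and the beta-1 adrenergic receptor Adrb1 by 0.66, the last losing its call in 6 alternatives. Without heart 8, 5 genes of this list rose and 4 fell. With the stretch of chromosome 8 described above left out, 4 rose and 6 fell.

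Genes that build and maintain mitochondria tended upward by small amounts, while those of the respiratory chain itself hardly changed. Of 69 mitochondrial ribosomal protein genes, 20 rose and 1 fell, with a median difference of 0.12. Mrps23 read 572, 495 and 510.0 CPM against 314, 371 and 366 CPM (0.59, SE 0.10, adjusted p = 0.000306), and Mrpl55 read 163, 179 and 168 CPM against 126, 114 and 119 CPM (0.51, SE 0.10). The 20 rises ran from 0.30 (Mrpl4) to 0.67 (Mrps18a), and Mrps28 fell (-0.34). With the library table as covariate 6 rose and none fell, and with hearts 5 and 8 left out 11 rose and 2 fell. Of 32 genes of mitochondrial import, chaperones and proteases, 10 rose and none fell. Timm44, which tethers the import motor to the inner membrane, read 162, 163 and 159 CPM against 113, 116 and 117 CPM (0.49, SE 0.07, adjusted p = 7.05e-05). Grpel1 and Grpel2, exchange factors of the matrix chaperone of that motor, rose by 0.58 and 0.61. The matrix proteases Lonp1 (0.33), Afg3l2 (0.47) and Clpp (0.27) rose as well.

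Of 40 complex I genes, 2 rose and 1 fell, with a median of -0.02, and of 58 genes of complexes II to V, 3 rose and 2 fell, with a median of -0.02. Both shares lie below those of all genes. The changed complex I genes were Ndufa11 (0.32), a subunit, and the assembly factors Ndufaf1 (0.37) and Ndufaf4 (-0.43). In the other complexes Cox19, a chaperone of cytochrome oxidase assembly, read 115, 114 and 117 CPM against 74.2, 75.8 and 69.5 CPM (0.65, SE 0.13), Cox6a1 rose by 0.44, and Atp5j, a subunit of the stalk of ATP synthase, fell by 0.40. Genes of mitochondrial DNA, ND6 among them, were not analysed here. Among regulators of biogenesis 4 of 22 rose and 1 fell. Polrmt, the RNA polymerase of mitochondria, read 51.3, 34.8 and 36.7 CPM against 20.1, 21.1 and 17.9 CPM (1.06, SE 0.15, adjusted p = 4.46e-05), with heart 37 the highest, and Elac2, which trims mitochondrial transfer RNA, rose by 0.64. In fusion and fission only Opa1, the fusion GTPase of the inner membrane, rose (0.51) and only its protease Yme1l1 fell (-0.31), of 16 tested.

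Other carriers of the Slc25 family moved little beside Slc25a4. Of 32 tested, 4 rose and 3 fell: the aspartate-glutamate carrier Slc25a13 (0.41), Slc25a26 (0.36), which imports S-adenosylmethionine, the iron carrier Slc25a28 (0.71) and the ATP-magnesium carrier Slc25a25 (1.11) rose, and Slc25a29 (-0.50) and Ucp1 fell with Slc25a4. Ucp1, the uncoupling protein of brown fat, read 0.0732, 0.0368 and 0.402 CPM against 3.94, 1.87 and 6.18 CPM, and it lies in the stretch of chromosome 8 described above. Slc25a5, which encodes Ant2, had no amplicon. Of 14 genes of the calcium uniporter and the permeability transition 3 rose and 1 fell. Letm1, an ion exchanger of the inner membrane, read 139, 127 and 125 CPM against 78, 81.7 and 81.4 CPM (0.70, SE 0.10), and the outer membrane channel Vdac1 (0.48) and Ppif (0.37), which encodes cyclophilin D, rose too.

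Mitophagy genes moved in both directions. Of 16 tested, 7 rose and 2 fell, with a median difference of 0.21. Optn, an adaptor that links ubiquitin on damaged mitochondria to the autophagosome, read 251, 289.6 and 236 CPM against 98.3, 114 and 114 CPM (1.25, SE 0.16, adjusted p = 2.2e-05). Rhot2, a GTPase that anchors mitochondria to motors, read 145, 146 and 144 CPM against 67, 80.6 and 77.6 CPM (0.95, SE 0.20), and Park2, the ubiquitin ligase parkin, rose by 0.73. Bnip3, a hypoxia-induced receptor of mitophagy, fell, with 114, 93 and 94.3 CPM against 188, 188 and 183 CPM (-0.89, SE 0.15, adjusted p = 0.000407), and so did Pink1, the kinase upstream of parkin (-0.40, SE 0.08). Each of these 5 genes had no overlap between the genotypes. With hearts 5 and 8 left out, 2 rose and 2 fell.

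In fuel use the pyruvate dehydrogenase complex, which feeds the TCA cycle from glucose, rose as a unit. Pdhb, its E1 beta subunit, read 899, 1085 and 997 CPM against 603, 547 and 599 CPM (0.77, SE 0.09, adjusted p = 9.33e-06). The E2 gene Dlat read 758, 624 and 678 CPM against 379, 479.6 and 435 CPM (0.67), the E3-binding gene Pdhx rose by 0.89, and Pdha1 by 0.26. Its activating phosphatase Pdp1 fell by 0.59, and of its inhibiting kinases Pdk2 rose (0.42) and Pdk3 fell (-0.64, its call lost in 7 alternatives). Of 27 tested genes of the TCA cycle and of pyruvate oxidation, 6 rose and 2 fell. Of 39 genes of fatty acid use, 6 rose and 2 fell. Acad11, an acyl-CoA dehydrogenase, read 239.6, 273 and 239.7 CPM against 127, 129.9 and 131 CPM (0.95, SE 0.09, adjusted p = 4.15e-07), Oxct1, which lets the heart burn ketone bodies, rose by 0.56, and the fatty acid uptake protein Cd36 fell by 0.53. Of 26 genes of glucose use, 6 rose, among them Pfkfb3 (0.77) and Eno3 (0.40), while the lactate carrier Slc16a1 (-0.56) and the glucose transporter Slc2a1 (-0.60) fell.

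Of 17 creatine and adenylate kinase genes, 4 rose and 1 fell. Ckm, the cytosolic creatine kinase of muscle, read 973, 868 and 877 CPM against 504, 507 and 478 CPM (0.87, SE 0.10, adjusted p = 7.6e-06), and Ak3, the adenylate kinase of the matrix, rose by 0.57. The AMP-activated kinase was divided, its beta subunit Prkab1 higher (0.85) and its catalytic subunit Prkaa2 lower (-0.38). In insulin and mTOR signalling 6 of 26 rose, with Akt1 at 389, 329.8 and 348 CPM against 192, 232 and 237 CPM (0.69, SE 0.10), Mtor at 0.67 and Trim63, the muscle ubiquitin ligase MuRF1, at 0.71, and 2 fell, Foxo1 (-0.55) and Rheb (-0.29).

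Immediate early genes, which cells transcribe within minutes of a stimulus without new protein, had the largest share of rises of the 34 pathway lists. Of 23 tested, 18 rose and 1 fell, with a median difference of 1.45. Egr1, a zinc finger factor, read 36.4, 807 and 534 CPM against 30.8, 42.9 and 43.6 CPM (3.55, SE 0.61, adjusted p = 0.000416). Fos, a subunit of the AP-1 factor, read 16.3, 112 and 61 CPM against 4.47, 9.56 and 7.64 CPM (3.10, SE 0.64, adjusted p = 0.00179). Junb, its partner, read 59.6, 287 and 158 CPM against 37.8, 38.2 and 48.1 CPM (2.02, SE 0.35). Heart 5 was highest and heart 8 next in each of the 3 genes, whereas heart 37 lay within the wild type range for Egr1 and above it for Fos and Junb, though below hearts 5 and 8. Egr3 (2.89), Nr4a2 (2.76), Btg2 (2.10), Jun (1.35) and Zfp36 (1.45) had the same order of hearts. Ier2 read 10 CPM in heart 37, below all wild type hearts, and 85.6 and 44.6 CPM in hearts 5 and 8.

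Nr4a1, an orphan nuclear receptor, had the same order of hearts but was far above wild type in heart 37 too. It read 225, 427 and 303 CPM against 31, 45 and 56.2 CPM (2.85, SE 0.78, adjusted p = 0.0134). Some other early genes did not follow that order. Atf3, a stress factor, was highest in heart 37, with 68.9, 54.1 and 46.9 CPM against 6.94, 13.3 and 15.9 CPM (2.22, SE 0.44, adjusted p = 0.00145), and Nr4a3 read 30.5, 10.9 and 10.8 CPM against 2.47, 7.53 and 7.11 CPM. Myc was likewise high in all 3 hearts (1.23). The list therefore held a part that was high in all knockout ND6 hearts and a part with its large rises in hearts 5 and 8. With hearts 5 and 8 left out, 5 genes rose and 3 fell, and the adjusted p of Egr1 was 0.893 and that of Fos 0.305. Without heart 8 it was 18 rises and 1 fall, without heart 5 14 and 1, and without heart 37 17 and 0. Junb, Ier2 and Klf2 lie in the stretch of chromosome 8 described above, and with it left out 15 rose and 1 fell.

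Hearts 5 and 8 shared their library tables with knockout hearts 21 and 22, whereas heart 37 came from other tables. Those knockout hearts read 34.8 and 30.6 CPM for Egr1, 2.16 and 2.08 CPM for Fos and 45.9 and 41.5 CPM for Junb, none above the highest wild type heart and, for Fos, below all 3. Hearts 61 and 91 are knockout ND6 hearts whose label names the control vector and whose title carries the code of Ant1 vector samples, and their Slc25a4 was 169 and 151 CPM. They read 33 and 58.7 CPM for Egr1, 2.26 and 5.15 CPM for Fos and 23.8 and 50.6 CPM for Nr4a1, far below hearts 5 and 8 in all 3 genes. Heart 37 shared its tables with knockout heart 27, which read 23.1 CPM for Egr1, 3.3 CPM for Fos and 32.1 CPM for Junb. For Nr4a1 that heart read 129 CPM, and knockout hearts 20, 21 and 22 given the Ant1 vector read 19.3 to 23.9 CPM. Under the control vector Nr4a1 was 60.9 to 117 CPM in knockout and 26.3 to 38.4 CPM in knockout ND6 hearts. Wild type hearts there read 11.3 to 146 CPM, with only heart 70 above 29.4 CPM. All 4 libraries of heart 5 read 792 to 810 CPM for Egr1, and those of heart 8 read 515 to 580. The 8 libraries of heart 37 read 26.9 to 48.8 CPM. The difference thus lay between hearts and not between libraries of a heart. Cldn5, an endothelial junction gene outside the list, had the same order, with 10.7, 31.5 and 21.3 CPM against 4.41, 8.2 and 8.72 CPM (1.55, SE 0.29).

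**Figure D2:**
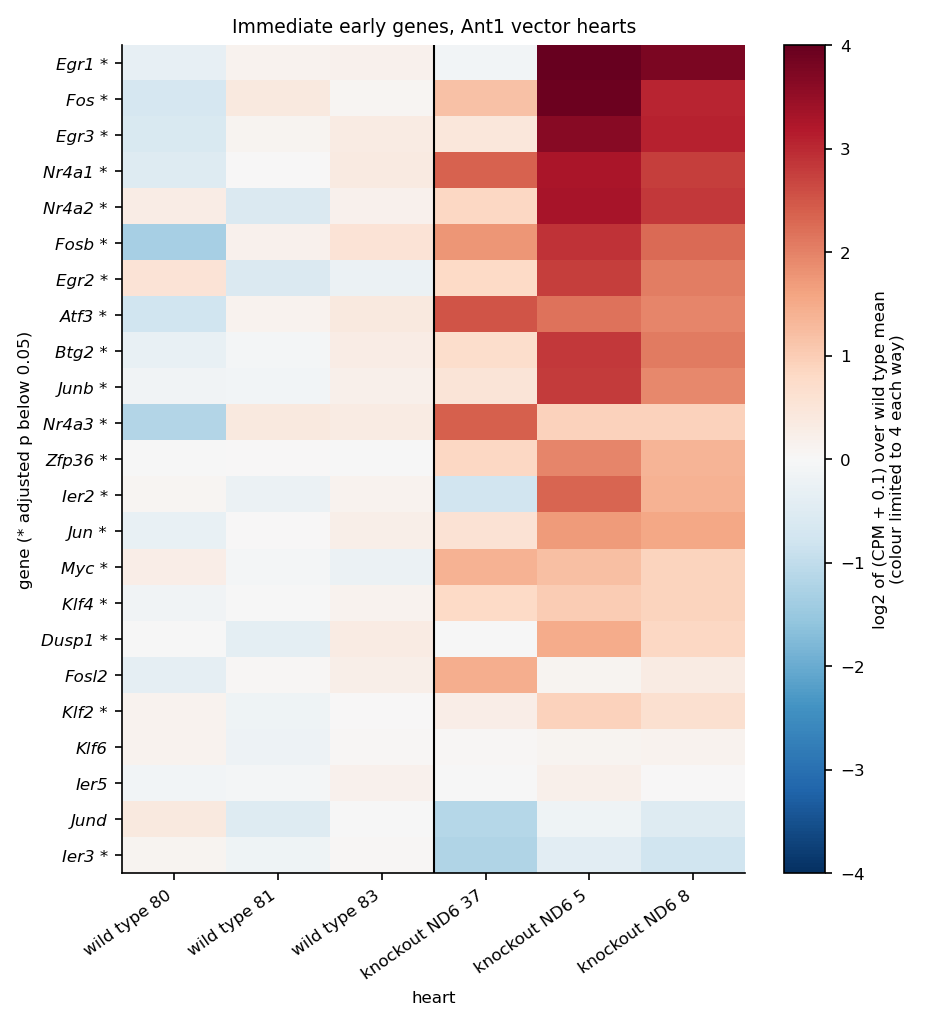
Colour gives log2 of (CPM + 0.1) over the wild type mean for the 23 tested immediate early genes (rows, star for adjusted p below 0.05) in the 6 Ant1 vector hearts (columns), limited to 4 in each direction. The deepest red sits in hearts 5 and 8, where Egr1 read 807 and 534 CPM, while heart 37 is red mainly for Atf3, Nr4a1 and Nr4a3.

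Of 19 immediate early genes with a promoter in the RefSeq table (GRCm38.p6), 2 held the cyclic AMP response element TGACGTCA within 250 bases before the start, Dusp1 and Btg2. The motif, which reads the same on both strands, occurred in 508 of 32851 promoters (1.55%). The stretch of Dusp1, the phosphatase that ends MAP kinase signals, is shown because its change differed between the vectors; capitals mark the motif, 143 bases before the start (chr17:26508566-26508635, minus strand).
Dusp1: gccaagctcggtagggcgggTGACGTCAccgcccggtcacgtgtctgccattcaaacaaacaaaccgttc
Dusp1 read 93.6, 259.8 and 165 CPM against 92.7, 71.4 and 117 CPM (0.88, SE 0.26, adjusted p = 0.0189), so that heart 37 lay among the wild type hearts.

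Chaperones of the endoplasmic reticulum, which fold secreted and membrane proteins and are induced together when unfolded proteins pile up, fell. Of 20 tested, 14 fell and none rose, with a median difference of -0.52. Leaving out the stretch of chromosome 8 that holds Calr, 12 fell and none rose. Sdf2l1, a chaperone cofactor, read 14.9, 12.4 and 10.4 CPM against 24.7, 30.7 and 42 CPM (-1.37, SE 0.21, adjusted p = 0.000134). Manf, a secreted survival factor retained by the chaperones, read 72.2, 63.3 and 65.5 CPM against 128, 149 and 166 CPM (-1.14, SE 0.21, adjusted p = 0.000672). Pdia6, a disulfide isomerase, read 30.5, 36.4 and 33.2 CPM against 58.7, 61.6 and 71.1 CPM (-0.94, SE 0.14). In these genes all 3 knockout ND6 hearts were below all wild type hearts, and all 3 genes were called under every alternative. Hspa5, the central chaperone BiP, read 591, 508 and 551 CPM against 682, 765 and 823 CPM (-0.46, SE 0.13, adjusted p = 0.0151), and Hsp90b1, GRP94, 651, 532 and 563 CPM against 654, 819 and 834 CPM (-0.40, SE 0.12). Heart 80 was the lowest wild type heart and heart 37 the highest knockout ND6 heart for both, so that the groups nearly touched in Hsp90b1.

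The isomerases Pdia3 (-0.84) and Pdia4 (-0.69), the nucleotide exchange factor Hyou1 (-0.61), the lectin chaperone Canx (-0.37), Creld2 (-0.72), the cofactors Dnajb9 and Dnajc3 (both -0.52) and Calr3 (-0.54) fell as well. P4hb, Dnajb11, Herpud1, Sel1l, Edem1 and Xbp1, the transcription factor of the response, were not called. The count was 10 without heart 8, 16 without heart 37, 11 without heart 5, 6 without hearts 5 and 8, and 7 with the library table as covariate, in each case with no rise. Under the control vector 2 of the 20 fell, with a median difference of -0.16.

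Some of these genes carry the ER stress response element, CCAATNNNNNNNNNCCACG on either strand, through which the unfolded protein response induces them. Within 250 bases before the start it was found in 7 of the 18 chaperone genes that had a promoter in the RefSeq table (Calr, Canx, Hspa5, Hsp90b1, Pdia6, Dnajc3 and Creld2), and in 37 of 32851 promoters of the table (0.113%). All 7 genes fell, in a list of which 14 of 20 fell. Sdf2l1, Manf, Pdia3, Pdia4, Hyou1, Dnajb9 and Calr3 fell without being among the 7. P4hb, Dnajb11, Herpud1, Sel1l, Edem1 and Xbp1, which were not called, were not among the 7 either. Only 18 of the 20 members had a promoter to search. Whether the element goes with the falls was not tested. Stretches from 5 of them are printed in GRCm38.p6 along the gene's strand, to show the element in genes called lower; capitals mark the element, which in Calr and Creld2 stands on the opposite strand.
Hspa5 (chr2:34772005-34772074, plus strand): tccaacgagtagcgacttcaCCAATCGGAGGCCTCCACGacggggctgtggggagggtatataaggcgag
Pdia6 (chr12:17266471-17266540, plus strand): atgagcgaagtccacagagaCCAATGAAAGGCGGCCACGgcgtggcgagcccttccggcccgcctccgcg
Canx (chr11:50325769-50325838, minus strand): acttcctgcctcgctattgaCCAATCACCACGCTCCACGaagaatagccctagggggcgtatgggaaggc
Creld2 (chr15:88819500-88819569, plus strand): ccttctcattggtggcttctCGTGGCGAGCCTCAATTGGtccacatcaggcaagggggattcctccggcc
Calr (chr8:84847044-84847113, minus strand): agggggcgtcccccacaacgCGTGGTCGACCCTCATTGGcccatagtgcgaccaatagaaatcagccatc
The element begins 65 bases before the start in Hspa5, 98 in Pdia6, 145 in Canx, 126 in Creld2 and 162 in Calr. A match describes the letters only, and factor binding was not measured in these hearts. Calr stands apart from the other 4, since it was as low under the control vector, at 2.6 to 2.96 CPM in knockout ND6.

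**Figure D3:**
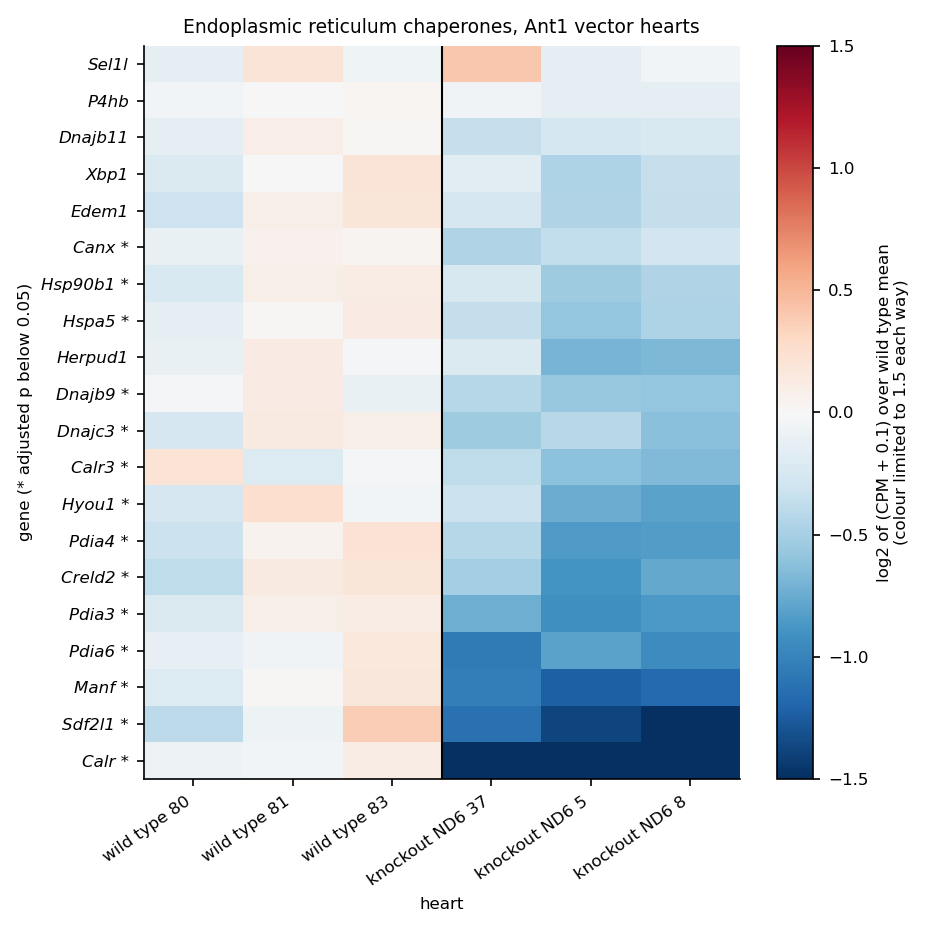
Colour gives log2 of (CPM + 0.1) over the wild type mean for the 20 tested chaperone genes of the endoplasmic reticulum (rows, star for adjusted p below 0.05) in the 6 Ant1 vector hearts (columns), limited to 1.5 in each direction. The knockout ND6 columns are blue for nearly all genes, palest in heart 37 for Hspa5 and Hsp90b1, and Calr is beyond the colour limit in all 3.

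The integrated stress response, by which cells with poor translation or failing mitochondria induce amino acid genes through Atf4, did not move as a unit. Of 30 tested genes 4 rose and 7 fell. Ppp1r15a, which ends the response by restoring the initiation factor, read 66.4, 74.2 and 55.1 CPM against 26.2, 32.9 and 33.3 CPM (1.08, SE 0.18, adjusted p = 0.000362), and Atf3 rose as given above. Both are also known as early response genes. Cth, which makes cysteine, read 2.31, 3.2 and 2.96 CPM against 5.35, 5.91 and 6.49 CPM (-1.08, SE 0.19, adjusted p = 0.000437), and the asparagine and serine genes Asns (-1.02) and Psat1 (-0.69) and the mitochondrial folate gene Aldh1l2 (-0.60) fell. The count of falls depended on single hearts: 3 rose and 3 fell without heart 8 and likewise without heart 5, 3 rose and 1 fell without both, and 5 rose and 3 fell with the library table as covariate. Transfer RNA synthetases, which charge amino acids for translation, went up: 13 of 36 rose and 1 fell, with a median of 0.18. Sars read 144, 136 and 148 CPM against 96, 104 and 99.7 CPM (0.52, SE 0.08, adjusted p = 0.000219), and Eprs (0.69), Aars (0.66) and the mitochondrial enzyme Aars2 (0.56) rose under every alternative. Of 22 cytosolic ribosomal protein genes 2 rose and 6 fell, among them Rps21 (-0.63), and 3 fell without heart 8 and 2 without heart 37. Of 12 inducible heat shock genes 2 rose, Hspa4l (0.44) and Hspb6 (0.33), and Dnajb4 fell (-0.59).

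**Figure D4:**
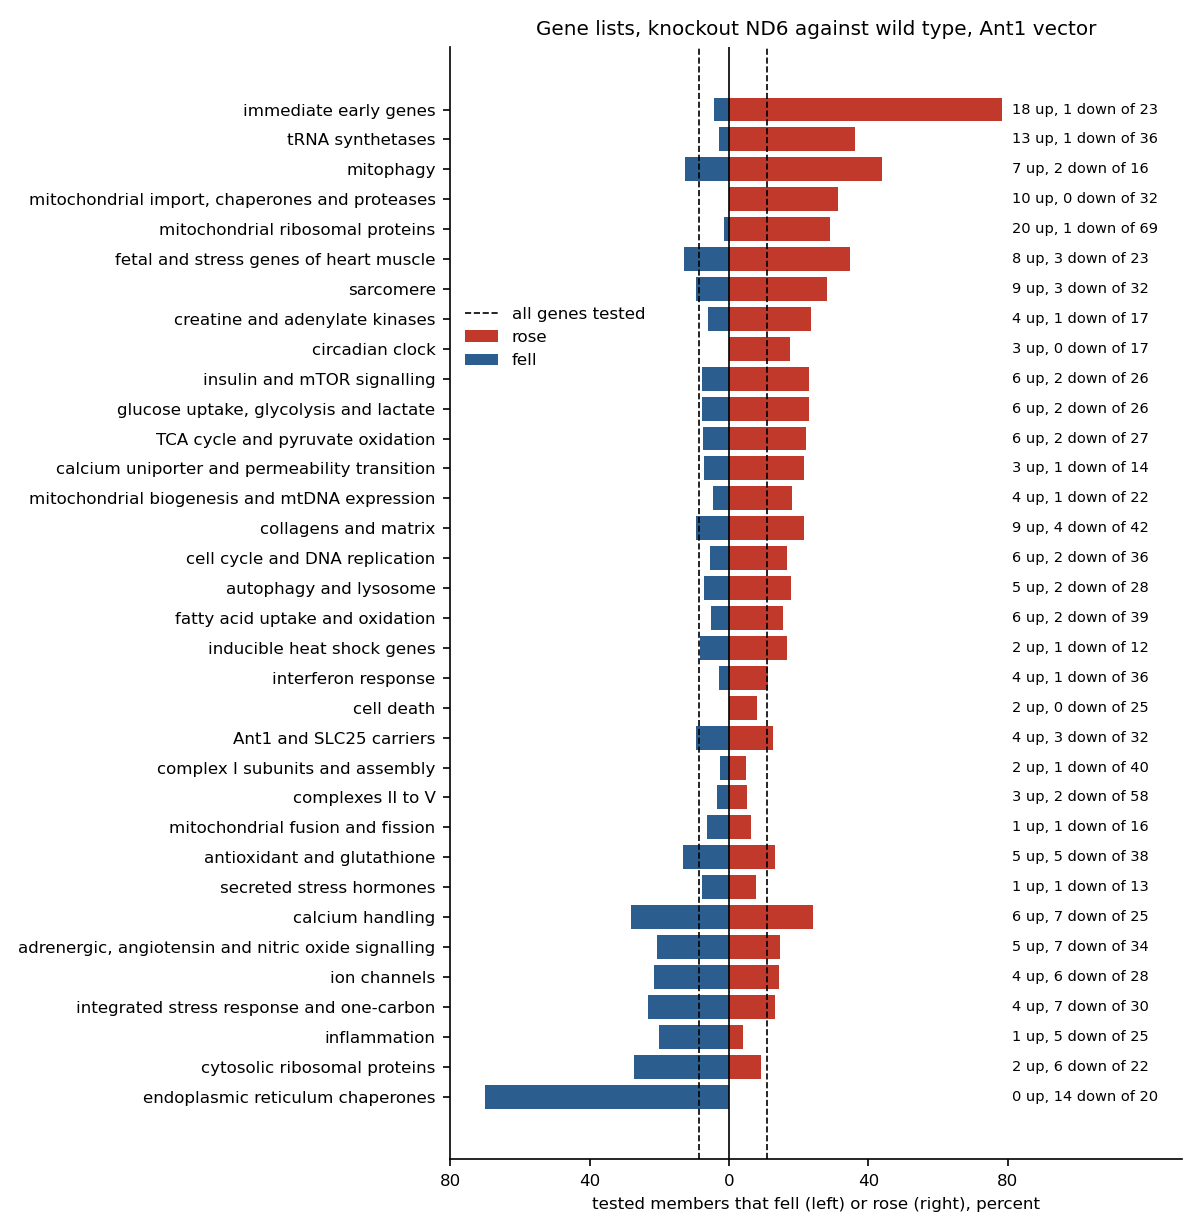
Share of the tested members of each of 34 gene lists that rose (red, right) or fell (blue, left) in knockout ND6 against wild type with the Ant1 vector, in percent, with the counts at the right; dashed lines mark all genes tested, 10.8% higher and 8.71% lower. Immediate early genes (18 of 23 up) and chaperones of the endoplasmic reticulum (14 of 20 down) lie at the ends, and complex I (2 of 40 up, 1 down) lies inside the dashed lines.

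Growth, matrix and immune genes showed smaller groups of changes. Of 36 cell cycle genes 6 rose and 2 fell: the D cyclins Ccnd1, with 48.5, 48.5 and 48.4 CPM against 20.2, 28.3 and 21.3 CPM (1.05, SE 0.14, adjusted p = 2.02e-05), and Ccnd2 (0.85) rose, as did the stress genes Gadd45b (1.49) and Gadd45a (0.72), while Mki67, a mark of dividing cells, rose from 1.16 to 2.16 CPM on average and lost its call in 9 alternatives. Of 42 collagen and matrix genes 9 rose and 4 fell. Col4a2, a chain of basement membrane collagen, read 90.1, 71.4 and 78.3 CPM against 31.6, 38.1 and 47.9 CPM (1.03, SE 0.17), and Col3a1, of interstitial fibres, 89.5, 70.2 and 87.2 CPM against 44.1, 41 and 49.7 CPM (0.87, SE 0.18, adjusted p = 0.00158). The genotypes were apart in both. Col1a1 read 288, 136 and 213 CPM against 136, 131 and 157 CPM, high in heart 37, and its call (0.59, adjusted p = 0.0492) was lost in 8 alternatives. The receptor Tgfbr1 fell (-0.84, SE 0.11). Without heart 8, 5 matrix genes rose and 4 fell, without heart 37 5 rose and 3 fell, and with the library table as covariate 18 rose and 5 fell.

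In 25 inflammation genes 1 rose, the interferon-induced chemokine Cxcl9 (0.53), and 5 fell, among them Vcam1 (-0.52) and the alarmin Il33 (-0.94). S100a8 (-1.83) and S100a9 (-1.70), proteins of neutrophils, fell from low levels, and neutrophil markers as a whole summed to 4.31 to 5.51 CPM in knockout ND6 and 7.53 to 13.8 CPM in wild type, with 3 of 7 lower. No neutrophil marker was called without heart 8, without heart 5 or with the library table as covariate. Their part in the fall of this list was not tested. Without heart 8, no inflammation gene rose and 2 fell. Of 36 interferon genes 4 rose, with Tap1 at 0.61, and 1 fell; without heart 8 it was 2 and 1. Of 38 antioxidant genes 5 rose and 5 fell; Gstm2 (-0.60) and Gstk1 (-0.82), glutathione transferases, were the falls called under every alternative, and without heart 8, 2 rose and 3 fell. Of 28 genes of autophagy and the lysosome 5 rose, with Lamp1 at 0.55 and the kinase Ulk1 at 0.58, and 2 fell. Of 25 cell death genes only Mcl1 (0.46) and Diablo (0.26) were called. Of 17 clock genes 3 rose, among them Per1 (0.91) and Dbp (0.69), and none fell.

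Markers of other cell types were read in the same way. Endothelial markers summed to 2089.8 to 2135 CPM in knockout ND6 and 1922 to 2127 CPM in wild type, with 6 of 14 higher, Cdh5 (0.44) and Esam (0.56) among them, and 2 lower. Fibroblast markers summed to 2265 to 2698 CPM against 2734 to 2874 CPM, with 2 of 11 higher, both collagens, and 2 lower. Macrophage markers summed to 365 to 602 CPM against 446 to 582 CPM, and 1 of 13 fell. Mesothelial markers summed to 50.6 to 83.5 CPM against 88.3 to 94.9 CPM, and 1 of 10 fell. No marker of T, B and NK cells (11 tested), of Schwann cells and neurons (9), of red blood cells (3) or of liver (8) was called. In skeletal muscle 4 of 11 markers rose, and 1 without heart 37. Myh1, a fast skeletal myosin, read 7.96 CPM in heart 37, between 3.74 and 10.5 CPM in each of its 8 libraries, against 0.0732 to 0.0736 CPM in hearts 8 and 5 and 0.0384 to 0.118 CPM in wild type. Smooth muscle and pericytes had 1 of 11 higher and 1 lower. The fat markers Ucp1 and Lep fell, of 12 tested, and of 6 tested markers of lung and thymus none was called. The list summed to 22.9 CPM in wild type heart 83, of which Scgb1a1, a secretory protein of the airway, made 20.2 CPM, and to 1.66 to 2.13 CPM in the other 5 hearts, with Sftpb and Rag2 at 0 counts. Of 4 tested sex markers none was called. Xist, a female marker, read at most 0.118 CPM in all 6 hearts. The list, whose other members are genes of the Y chromosome, summed to 362 to 369.9 CPM in knockout ND6 and 354 to 399 CPM in wild type.

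The same genotypes were compared under the control vector in 7 other hearts, 3 knockout ND6 and 4 wild type. There 1954 genes were called (12.7%). Of these, 1095 were also called under the Ant1 vector, which is 56.0% of the control vector calls and 36.5% of the Ant1 vector calls, and 1083 of them changed in the same direction. The 2 comparisons share no heart. Acta1 differed by 2.18 there and 2.06 here, Nppb by 2.02 and 1.54, Ankrd1 by 1.68 and 1.25, Mybpc3 by 0.82 and 1.11, Ckm by 0.65 and 0.87 and Gdf15 by 3.28 and 1.98. None of these differences between the vectors was called; for Gdf15 it was -1.30 (SE 0.67, adjusted p = 0.506) and for Nppb -0.49 (SE 0.39, adjusted p = 0.704). Intervals of this width do not show that the effects were alike.

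A test of the difference itself, the knockout ND6 effect under the Ant1 vector minus that under the control vector, called 42 genes (0.273%), of which 31 were higher and 11 lower. At an unadjusted p below 0.05 it was 1615 genes. The number is unstable: leaving out 1 heart at a time gave 9 to 94, DESeq2 called 172, and with hearts 61 and 91 counted as Ant1 vector hearts 2 genes were called. Slc25a4 differed by 6.51 (SE 1.11, adjusted p = 0.0134). Csrnp1, a nuclear factor of the early response, read 100.5, 99.1 and 86.8 CPM in knockout ND6 and 32.1, 35.4 and 40.4 CPM in wild type with the Ant1 vector, against 33.1 to 35.1 CPM and 31.9 to 70.7 CPM with the control vector (1.92, SE 0.27, adjusted p = 0.00284). It was high in all 3 knockout ND6 hearts, heart 37 included. Zfp36, which degrades inflammatory messages, read 58, 125 and 84 CPM against 32.1, 32.9 and 32 CPM, and 17.1 to 25.3 CPM against 23.7 to 53.1 CPM with the control vector (2.24, SE 0.37, adjusted p = 0.011). Btg2 (2.16), Dusp1 (1.70), Klf4 (1.37) and Rasd1 (2.52), a glucocorticoid-induced small GTPase, were called in the same direction, and so was the clock gene Per1, with 233, 237 and 235 CPM against 139, 107 and 130.3 CPM here and 87 to 109 CPM against 124 to 188 CPM there (1.52, SE 0.26, adjusted p = 0.0134). Per1, Dusp1, Zfp36 and 9 further genes were called in both vectors with opposite signs. Of the immediate early genes, 3 rose and 3 fell under the control vector, with a median of -0.18. For Egr1 and Fos the difference between the vectors was not called (2.71, SE 0.78, adjusted p = 0.173, and 3.95, SE 0.89, adjusted p = 0.0692), and no chaperone of the endoplasmic reticulum was called.

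On the lower side the platelet chemokine Pf4 read 25.8, 20.9 and 22.4 CPM against 55.5, 44.9 and 54.9 CPM here, and 31.7 to 41.8 CPM against 35 to 41.3 CPM with the control vector (-1.18, SE 0.18, adjusted p = 0.00407). All 7 control vector hearts lay between the knockout ND6 and the wild type hearts given the Ant1 vector. Plek (-1.44) and Rgs18 (-2.08), genes of platelets and other blood cells, were called in the same direction. Hspa1b, an inducible Hsp70 gene, read 2.4, 5.52 and 7.1 CPM against 5.71, 8.39 and 7.95 CPM here, but 31.4 to 57.2 CPM against 6.43 to 14.5 CPM with the control vector (-2.54, SE 0.47, adjusted p = 0.0287). Rrm2, a ribonucleotide reductase subunit of DNA synthesis, read 3.17 to 4.54 CPM against 3.75 to 4.83 CPM here, but 9.72 to 14.1 CPM against 3.12 to 4.91 CPM there (-1.73, SE 0.28, adjusted p = 0.011). Both genes were called higher in knockout ND6 under the control vector (1.94 for Hspa1b and 1.60 for Rrm2) and were not called under the Ant1 vector (-0.60 and -0.12).

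**Figure D5:**
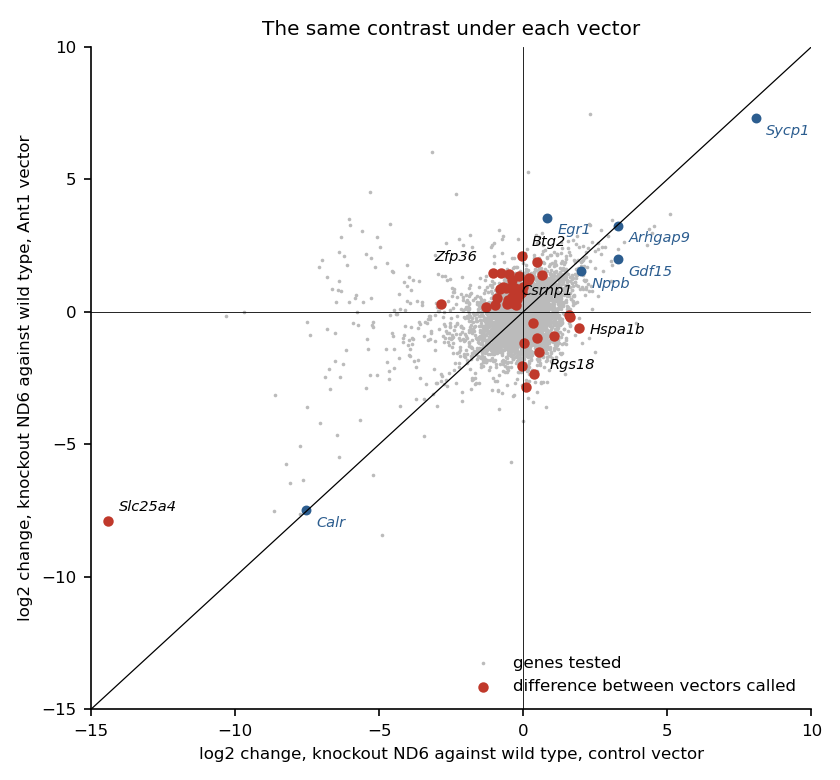
Each point is a gene, with its log2 change of knockout ND6 against wild type under the control vector (horizontal) and under the Ant1 vector (vertical); the diagonal marks equal changes, and red marks the 42 genes whose difference between the vectors was called. Calr (-7.49 under the Ant1 vector) and Sycp1 (7.32) lie near the diagonal, and Slc25a4 lies 6.51 above it.

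Against the 4 knockout hearts given the Ant1 vector, the 3 knockout ND6 hearts differed in 255 genes (1.66%), 165 higher and 90 lower. This contrast shares its knockout ND6 hearts with the main one, and the values are set side by side only. The count is unstable as well: it was 83 without heart 5, 94 without heart 8, 676 without heart 37, 774 without knockout heart 27, 132 and 131 without knockout hearts 21 and 22, and DESeq2 called 611. With hearts 61 and 91 counted as Ant1 vector hearts it was 81, and with the library table as covariate 1820. The 6 widest rises among genes with at least 5 CPM in a group and no overlap between hearts were all immediate early genes, with Fos at 4.60 (adjusted p = 0.000243), Egr1 at 4.01 (adjusted p = 0.000336), Egr3 at 3.53, Nr4a1 at 2.71, Btg2 at 2.43 and Nr4a2 at 2.40, and 15 of the 23 listed genes rose. The knockout hearts were low, at 23.1 to 34.8 CPM for Egr1 and 2.08 to 3.3 CPM for Fos. Of the 23 fetal and stress genes Nmrk2 (1.67) and Fhl3 (0.56) rose and none fell. Nppb, Acta1 and Gdf15 were not called: Nppb read 711 to 2242 CPM in the knockout hearts (-0.27, SE 0.27, adjusted p = 0.649), Acta1 321 to 790.5 CPM (0.54, SE 0.29, adjusted p = 0.363) and Gdf15 5.29 to 42.9 CPM (-0.55, SE 0.43, adjusted p = 0.552). Lower in knockout ND6 were Hp, the haemoglobin-binding haptoglobin (-3.22, SE 0.71, adjusted p = 0.0219), Cdo1, a cysteine dioxygenase (-3.02, SE 0.57), and Mzb1, a chaperone of antibody-secreting cells, at 2.38, 0.957 and 1.28 CPM against 3.18 to 11.1 CPM (-1.94, SE 0.37, adjusted p = 0.00852). In the same contrast 2 of 12 fat markers fell and none rose, with a median of -2.15. Whether the falls of Hp and Cdo1 go with the amount of fat in each piece of heart was not tested. Slc25a4 was lower than in the knockout hearts by an amount that was not called (-2.30, SE 0.61, adjusted p = 0.0586).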

How the data were processed

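Members and gene lists were chosen with earlier results of these data known. The authors deposited whole-number read counts per amplicon in 14 tables, with 112 bulk libraries and 23930 amplicons. Reads were mapped to mm10, per the submitters' processing notes; neither the aligner nor the amplicon positions are stated in the labels. Total RNA was read by Ion AmpliSeq on an Ion Torrent S5, per the labels' protocols. Libraries with the same title number and group were summed to hearts. Library totals of the compared hearts were 5031519 to 8531273 counts. In the tables, 27 gene symbols had been turned into dates and were restored. Gene positions and promoters come from RefSeq (GRCm38.p6); 21913 amplicons were matched by symbol, 741 by synonym and 1276 not.

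All 22 hearts in 7 groups entered 1 fit of edgeR 4.0.16 (R 4.3.3): filterByExpr, TMM scaling, quasi-likelihood test, Benjamini-Hochberg adjustment over all 15403 genes, threshold 0.05, prior count 2 for log2 changes. Libraries 80a and 80b and hearts 61 and 91 have titles whose group code differs from their treatment label; 80a and 80b were left out, and 61 and 91 formed a group of their own. Single-nucleus samples were not used here. Named genes were, by rule: the 12 largest called changes per direction among genes whose groups did not overlap and whose higher mean reached 5 CPM, the 6 most abundant called genes per direction, up to 4 genes per list with the smallest adjusted p, 10 genes of interest (Slc25a4, Slc25a5, Nppa, Nppb, Myh7, Acta1, Ankrd1, Fgf21, Gdf15, Calr), and by the same limits the 6 largest per direction in the other contrasts. Other genes named here were added after their values were seen, and some listed genes are not reported here. Lists (34 of pathways, 16 of cell types) are given by counts and median. Alternatives were RLE size factors, DESeq2 1.42.0, no filter, other groups of hearts, each heart left out, Xist, the library table (limma 3.58.1, voom, with libraries of a heart correlated at 0.176), and the chromosome 8 stretch left out. The tests were checked on simulated counts. Libraries of a heart differed beyond counting error, by a median ratio of 1.67 to 2.98 in hearts 5, 8, 80, 81 and 83. In heart 37 the ratio was 4.01 within and 16.4 between its tables. Between hearts it was 11.8 in knockout ND6 and 4.5 in wild type. Of the 80 knockout ND6 pairs, 64 set heart 37 against hearts 5 and 8, with a median of 12.8, while hearts 5 and 8 differed by 2.96. No library was a copy of another.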

Additional observations from a re-analysis of the deposited data

Results flagged for a closer look

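Groups of 3 hearts were too small for a test of single outlying hearts. The knockout ND6 effect differed between the vectors (edgeR interaction test, effect under the Ant1 vector minus effect under the control vector, log2) in the named genes Slc25a4 (6.51), Tat (3.13), Rasd1 (2.52), Zfp36 (2.24), Btg2 (2.16) and Csrnp1 (1.92) on the higher side, and Hspa1b (-2.54), Rgs18 (-2.08), AY761185 (-1.99), Rrm2 (-1.73), Plek (-1.44) and Pf4 (-1.18) on the lower side. Tat, a tyrosine aminotransferase, read 1.03 to 4.01 CPM in knockout ND6 and 1.81 to 2.04 CPM in wild type with the Ant1 vector, and 0.725 to 1.78 CPM against 5.35 to 14.3 CPM with the control vector. It thus met the limit of 5 CPM only through the wild type hearts given the control vector. Of 8 tested liver markers, 6 were also lower in knockout ND6 under the control vector, with a median of -3.62. None was called between the vectors (median 5.87). Whether Tat goes with the liver markers was not tested.

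Slc25a4 read 169 CPM in heart 61 and 151 CPM in heart 91, knockout ND6 hearts whose label names the control vector and whose title carries the code of Ant1 vector samples. The 3 knockout ND6 hearts with both label and title of the control vector read 0.219 to 0.851 CPM, and heart 8, labelled with the Ant1 vector, read 0.732 CPM.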

How the results depend on the processing

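The count of 3003 genes lay between 1878 and 2584 with 1 heart left out, at 1931 with only the compared groups in the fit, and between 2196 and 3326 under the other alternatives, DESeq2 giving 3326. The difference between the vectors (42 genes) lay between 9 and 94 with 1 heart left out, and was 172 by DESeq2, 190 with hearts 5 and 8 left out together (a setting chosen after seeing the data), 2 with hearts 61 and 91 counted as Ant1 vector hearts, 81 with Xist as covariate and 219 with the library table as covariate. Knockout ND6 against knockout (255 genes) lay between 83 and 774 with 1 heart left out, and was 611 by DESeq2, 35 with only the compared groups, 70 with hearts 5 and 8 left out together, 81 with hearts 61 and 91 counted as Ant1 vector hearts and 1820 with the library table as covariate. Of 176 called named genes, 96 were called in every alternative and none reversed; 51 lost the call without hearts 5 and 8, 42 with the table covariate and 27 without heart 83. The sign changes given here were all of uncalled marker and list genes: with the table covariate Fstl3 (0.00), Casp12 (0.01), Fcgr1 (0.19), Klrb1c (-0.60), Cd8b1 (-0.40), Alas2 (0.43), Ager (0.09) and Kdm5d (-0.02); with hearts 5 and 8 left out Lyve1 (0.24), C1qc (0.07), Cd8b1 (-0.08), Alas2 (0.13), Upk1b (0.04), Ager (0.10) and Ddx3y (-0.05); and with 1 heart left out Slc4a1 (-0.72 to 0.38, reversed without heart 37 and, at -0.11, without heart 83), Sftpa1 (-5.57 to 2.50, without heart 83), Ager (-0.40 to 0.11, without heart 83 and, at 0.03, heart 8), Uty (-0.03 to 0.26, without heart 37) and Ddx3y (-0.02 to 0.05, without heart 80 and, at -0.01, heart 5). The cause was not tested. No paired analysis was possible because the hearts of the compared groups share no number. Wild type hearts with the Ant1 vector share library tables with knockout heart 20 only and with no knockout ND6 heart, so table and genotype are linked through few hearts. Depth limits genes below about 1 CPM, such as Fgf21.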
